A study of Arabidopsis thaliana with 3 samples.

Results

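The 44 genes described here were 29 Aux/IAA genes (IAA1 to IAA20 and IAA26 to IAA34) and 15 ARF genes, of 27444 nuclear protein-coding genes. They were listed by family membership, with earlier results of these data known. The 15 ARF genes are not the whole family, as 8 others, ARF12 to ARF15 and ARF20 to ARF23, are left out. A gene was counted as bound by a factor when at least 1 summit, the position of highest signal within a peak, lay inside the gene or at most 1000 bp from either end. The families were compared with each other, and the 5 ARF genes whose products are known as activators (ARF5, ARF6, ARF7, ARF8 and ARF19) with the other 10.

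Auxin acts on transcription through 2 protein families that bind each other. ARF proteins (auxin response factors) bind DNA at auxin-responsive genes, and Aux/IAA proteins are short-lived repressors that hold them silent together with TOPLESS-type co-repressors. Auxin promotes the binding of Aux/IAA proteins to F-box receptors of the TIR1/AFB family, the Aux/IAA proteins are degraded, and the ARF proteins are released. In dark-grown seedlings this pathway is known for its part in hypocotyl elongation and in the formation of the apical hook.

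Binding was mapped by ChIP-seq in whole Arabidopsis thaliana seedlings of the accession Col-0, aged 4 days and grown in the dark in hydroponics. The samples expressed a GFP fusion of DIG1, a GFP fusion of DIG2, or GFP alone as the control, with 1 sample of each, and the protocol calls the fusion proteins DTAF. All 3 groups received 10 uM dexamethasone for 6 h and were precipitated with the same rabbit antibody against GFP. No source used here gives the promoter that drives each transgene or the number of independent lines. The series belongs to a study of abscisic acid-responsive transcription factors, and no abscisic acid treatment is named for these samples. The peak list for DIG1 had 13459 summits in 11343 peaks, that for DIG2 had 16562 summits in 13440 peaks, and for GFP no peaks were analysed. The read depth of the libraries is unknown, so fold enrichment and −log10 p, which are the authors' values from the peak caller, are used only within their own list. Each factor had 1 list without replicates, so no difference below was tested against replicate error.

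DIG1 summits lay at 31 of the 44 genes (70.5%) and DIG2 summits at 35 (79.5%), against 37.7% and 42.3% of all protein-coding genes. Both factors had summits at the same 31 genes (70.5%, against 36.3% of all genes). A further 4 genes, IAA27, IAA32, ARF4 and ARF17, had a DIG2 summit alone (9.09%, against 6.03% of all genes). Neither factor had a summit at 9 genes (20.5%, against 56.3% of all genes). None of the 4 genes with a DIG2 summit alone kept its call among summits with a −log10 p of at least 30. At that cutoff IAA14, IAA28 and ARF16 had a DIG2 summit alone, but the full DIG1 list held summits there, at 19.5, 23.4 and 17.0. The same cutoff was put on lists with medians of 50.8 (DIG1) and 76.1 (DIG2), so it does not compare strength between the factors. With the DIG2 list shortened to the length of the DIG1 list, IAA27 and ARF4 were the members with a DIG2 summit alone. The share of all genes with a DIG2 summit alone was not counted for either setting. In the full lists no member had a DIG1 summit alone, which was rare over all genes too, at 384 of 27444. Where a gene had several summits it is described here by the strongest, the one with the highest −log10 p. Among bound members the median of that value was 126 in the DIG1 list, against 60.6 over all bound genes. In the DIG2 list it was 191, against 94.0 over all bound genes.

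Aux/IAA genes were bound in larger shares than ARF genes in both lists. DIG1 bound 23 of 29 Aux/IAA genes (79.3%, 95% Wilson interval 61.6 to 90.2%) and 8 of 15 ARF genes (53.3%, 30.1 to 75.2%). DIG2 bound 25 of 29 Aux/IAA genes (86.2%, 69.4 to 94.5%) and 10 of 15 ARF genes (66.7%, 41.7 to 84.8%). The intervals of the 2 families overlapped in both lists, and they treat genes as independent. The ARF shares hold for these 15 genes only, as the 8 ARF genes left out had no summit in either list. With the window at 3000 bp the order turned round, with 24 Aux/IAA and 14 ARF genes bound by DIG1 (82.8% and 93.3%) and 26 and all 15 bound by DIG2 (89.7% and 100%), against 54.9% and 59.7% of all genes.

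**Figure D1:**
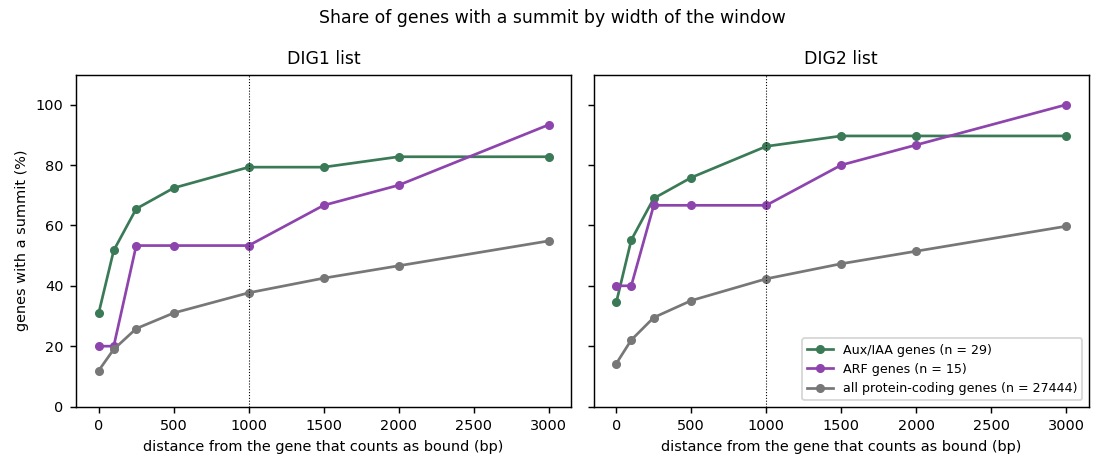
Share of genes with a summit (%) against the distance from the gene that counts as bound (bp), for the DIG1 list on the left and the DIG2 list on the right, with the 29 Aux/IAA genes, the 15 ARF genes and all 27444 protein-coding genes as lines and the distance of 1000 bp dotted. The Aux/IAA line is nearly flat beyond 1000 bp, while the ARF line climbs to 93.3% for DIG1 and 100% for DIG2 at 3000 bp and crosses it.

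Gene length differed between the families. ARF genes were longer, with a median of 4530 bp against 1740 bp for Aux/IAA genes and 2078 bp for all genes, so their windows were wider. Over all genes the bound share was higher in longer genes, from 27.6% under 1500 bp to 40.9% at 1500 bp to under 3000 bp and 44.1% at 3000 bp or more for DIG1. For DIG2 these shares were 31.2%, 45.8% and 49.5%. Of the 10 Aux/IAA genes under 1500 bp, each factor bound 7 (70%). Of the 17 Aux/IAA genes of 1500 bp to under 3000 bp, DIG1 bound 14 (82.4%) and DIG2 16 (94.1%). All 15 ARF genes fell in the longest class, where DIG1 bound 53.3% and DIG2 66.7% of them. That class held only 2 Aux/IAA genes, both bound by both factors, so family and gene length cannot be told apart here.

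**Figure D2:**
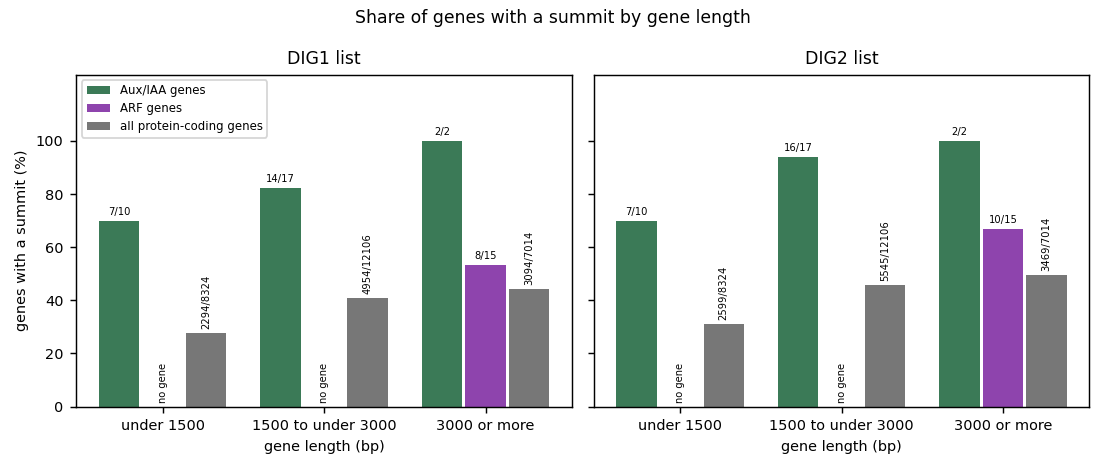
Share of genes with a summit (%) by class of gene length (bp) for DIG1 on the left and DIG2 on the right, with bars for Aux/IAA genes, ARF genes and all protein-coding genes and the counts above each bar. Aux/IAA bars stand above the bar for all genes in each class, and ARF genes occur only in the class of 3000 bp or more.

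The strongest summits within the family lay at IAA19, IAA16, ARF2, IAA6 and IAA34, and these 5 genes led both lists. IAA19 (AT3G15540), the MSG2 gene of hypocotyl bending and tropic growth, held the strongest DIG1 summit of all members. Its DIG1 peak spanned chr3:5263312-5264226 (TAIR10), with a fold of 10.9, a −log10 p of 481 and rank 213 among DIG1 summits. Its DIG2 peak spanned chr3:5263288-5264239, with a fold of 14.7, a −log10 p of 840 and rank 164 among DIG2 summits. The summits lay 89 and 105 bp outside the gene, 16 bp apart, and each list had this 1 summit there.

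IAA16 (AT3G04730), whose product is a canonical Aux/IAA repressor, led the DIG2 list with a fold of 13.2, a −log10 p of 916 and rank 104. Its strongest DIG1 summit had a fold of 8.69, a −log10 p of 452 and rank 265. Both lists placed that summit on the same base, 293 bp outside the gene. In the DIG1 list a single interval, chr3:1286635-1292386, of 5752 bp covered the whole gene and carried 4 summits in its window. The DIG2 list had 5 summits there in 2 intervals, chr3:1287837-1289495 and chr3:1289707-1292450.

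ARF2 (AT5G62000), which encodes a repressing ARF known for limiting organ growth and for its part in the apical hook, was the only ARF gene within 1000 bp of the 1000 strongest peaks, which lay at 4.2% of all genes for DIG1 and 3.98% for DIG2. Its DIG1 peak at chr5:24909361-24910512 had a fold of 10.0 and a −log10 p of 466, and its DIG2 peak at chr5:24909301-24910536 a fold of 14.7 and a −log10 p of 880. These summits lay 444 and 462 bp outside the gene. Another summit, 623 bp beyond the opposite end and inside the heat shock factor gene HSFB2A, was counted for ARF2 in both lists, with folds of 2.72 and 4.00.

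IAA6 (AT1G52830), the SHY1 gene named for its short-hypocotyl mutant, had the same summit base in both lists, 90 bp outside the gene at chr1:19673742, with folds of 9.88 for DIG1 and 14.2 for DIG2. A second, weaker summit at its other end was in the DIG2 list alone, with a fold of 3.11, and lay 18 bp from the neighbouring gene CDT1. IAA34 (AT1G15050) had folds of 7.26 for DIG1 and 12.6 for DIG2. Its summits lay 493 and 475 bp outside it but only 96 and 114 bp from its neighbour GAT1_2.1. These 5 genes were the only members whose strongest summit ranked among the top 6% of each list.

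**Figure D3:**
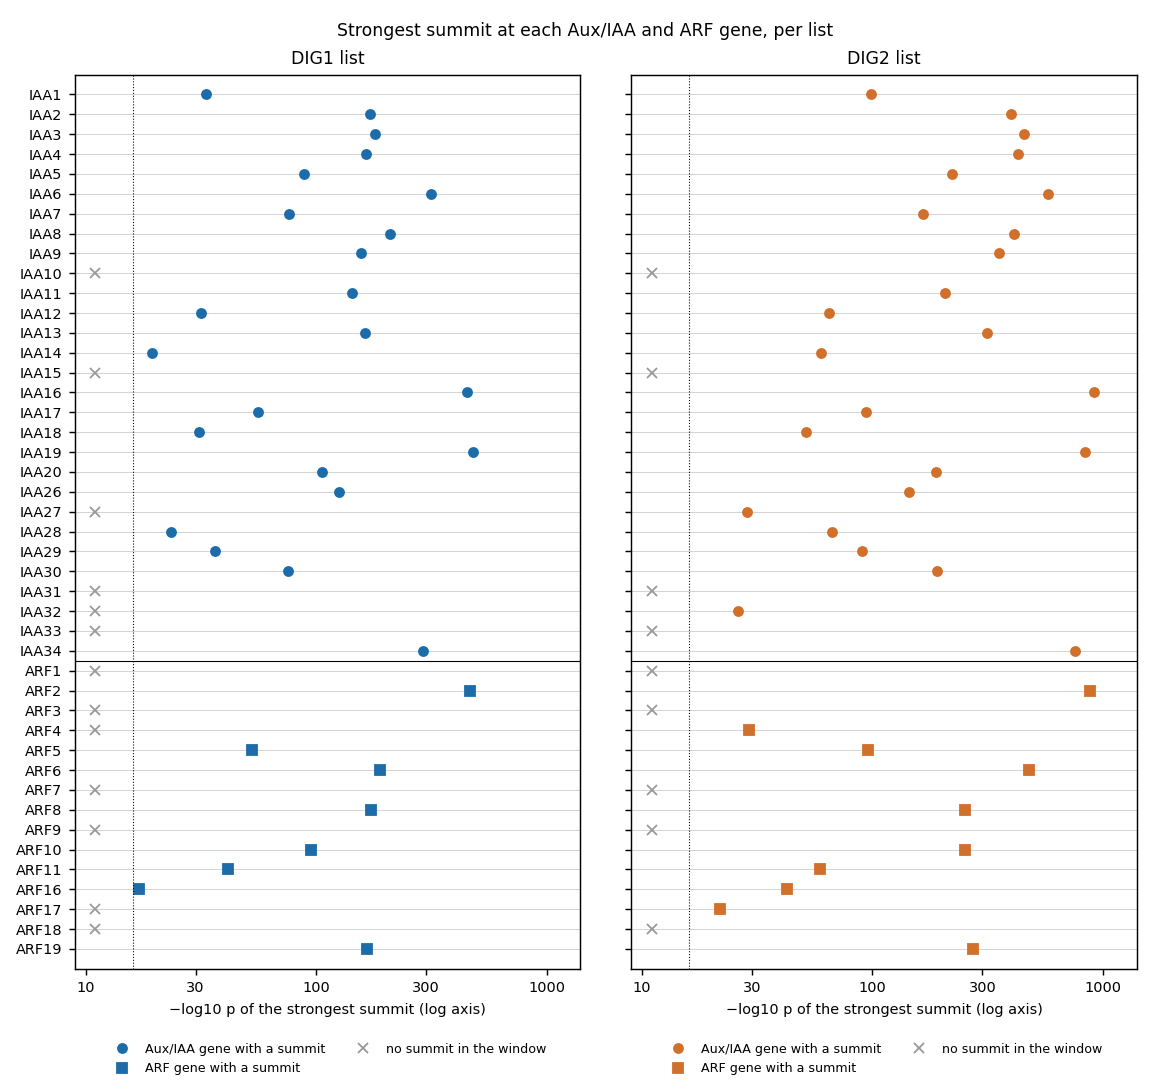
The −log10 p of the strongest summit (log axis) at each of the 44 genes, for the DIG1 list on the left and the DIG2 list on the right, with circles for Aux/IAA genes, squares for ARF genes, crosses at the left edge for genes with no summit in the window, and the lowest value of the lists, 16, dotted. IAA19, ARF2, IAA16, IAA6 and IAA34 stand at the right in both panels, and the 4 genes with a DIG2 summit alone lie between 21.7 and 29.3.

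The Aux/IAA genes are described next by groups of close relatives, which are textbook groupings. In the group of IAA1, IAA2, IAA3 and IAA4, all 4 genes were bound by both factors, and the strongest summit lay 4 to 120 bp from a gene end, on either side of it. IAA3 (SHY2), a repressor known for control of root meristem size and of hypocotyl growth in light, had folds of 5.75 for DIG1 and 9.41 for DIG2 at a summit inside the gene, 111 and 120 bp from its end. IAA4 had folds of 5.22 and 8.72 at a summit 4 and 9 bp inside the gene, and IAA2 folds of 4.15 and 6.23. IAA1 was the weakest of the 4, with folds of 2.54 and 3.86.

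In the group of IAA5, IAA6 and IAA19, all 3 genes were bound by both factors and had the highest median of any group, a −log10 p of 315 for DIG1 and 580 for DIG2. IAA5 was the weakest of them, with folds of 4.14 and 6.64.

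In the group of IAA7, IAA14, IAA16 and IAA17, all 4 genes were bound by both factors and carried the most summits. Stabilizing mutations in IAA7 (AXR2), IAA14 (SLR) and IAA17 (AXR3) are known from auxin-resistant plants, and that of IAA14 for loss of lateral roots. The group held 12 DIG1 and 16 DIG2 summits, so 4 genes accounted for 12 of the 38 DIG1 summits and 16 of the 45 DIG2 summits at Aux/IAA genes. All 4 had at least 2 summits in each list, against 30.4% of all DIG1-bound and 36.1% of all DIG2-bound genes. Of these summits, 6 of 12 in the DIG1 list and 6 of 16 in the DIG2 list lay above the median −log10 p of their list, 50.8 and 76.1, and the strongest were at IAA16. At IAA7, 4 DIG1 summits had −log10 p values of 17.4 to 76.3 and 5 DIG2 summits of 24.5 to 166. IAA14 had 2 DIG1 summits, with −log10 p of 18.2 and 19.5, near the lowest value in the list, and 4 DIG2 summits with values of 19.5 to 59.9. IAA17 had folds of 3.24 and 3.97.

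In the group of IAA8, IAA9 and IAA27, the first 2 were bound by both factors and IAA27 by DIG2 alone. IAA8 had folds of 5.46 and 7.73 and IAA9, whose tomato counterpart is known for roles in leaf and fruit development, folds of 5.05 and 7.71. The only summit counted for IAA27 (PAP2) lay 871 bp outside the gene with a fold of 2.61, and the nearest DIG1 summit was 6155 bp from the gene.

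In the group of IAA10 to IAA13, 3 of 4 genes were bound by both factors. IAA13 had folds of 5.05 and 7.06, with the summit 54 and 14 bp outside the gene. IAA12 (BDL), which represses the activator ARF5 in the embryo, had weak summits with folds of 2.64 and 3.5. IAA11 had folds of 5.10 and 5.97, but its summits were 721 and 703 bp away and closer to the transporter gene ABCB23, at 288 and 306 bp. IAA10 was farther from any summit than every other member, at 9857 bp for DIG1 and 9491 bp for DIG2.

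In the group of IAA18, IAA26 and IAA28, all 3 genes were bound by both factors. IAA26 (PAP1) had folds of 4.68 and 4.70, while IAA18 had 2.59 and 3.1 and IAA28, a repressor of lateral root formation, 2.35 and 3.59. IAA29, a gene known as a target of PIF factors in shade, had single summits at 635 and 607 bp with folds of 2.93 and 4.31. IAA15 and IAA33 had no summit within 1000 bp. The nearest lay 1592 and 1342 bp from IAA15, and 6441 and 6402 bp from IAA33.

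The Aux/IAA proteins IAA20 and IAA30 to IAA34 lack the canonical degron, the short motif through which the receptor binds, or, in IAA31, have a diverged one. Of these 6 genes, DIG1 bound 3 (50.0%) and DIG2 4 (66.7%), against 20 (87.0%) and 21 (91.3%) of the 23 genes with a degron and 37.7% and 42.3% of all genes. With IAA31 counted among the genes with a degron, the shares were 60% (3 of 5) against 83.3% (20 of 24) for DIG1 and 80% (4 of 5) against 87.5% (21 of 24) for DIG2. None of the 6 had more than 1 summit in a list, which rests on the 3 and 4 bound ones only. Of the bound genes with a degron, 9 of 20 (45.0%) had at least 2 DIG1 summits and 11 of 21 (52.4%) at least 2 DIG2 summits. Over all bound genes these shares were 30.4% and 36.1%. IAA20 had folds of 4.58 and 6.10, its close relative IAA30 had 4.07 and 6.44, and both summits lay within 83 bp of the gene. IAA31 of the same group had none nearer than 3179 and 3176 bp. IAA32 was bound by DIG2 alone, with a fold of 2.47 at 145 bp, but the neighbour PDE331 was nearer at 74 bp. With each summit given to its nearest gene only, IAA34 and IAA32 were no longer counted. The groups differed in gene length too, with medians of 1268.5 bp without and 1907 bp with the degron, and the part of length in the difference was not tested.

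**Figure D4:**
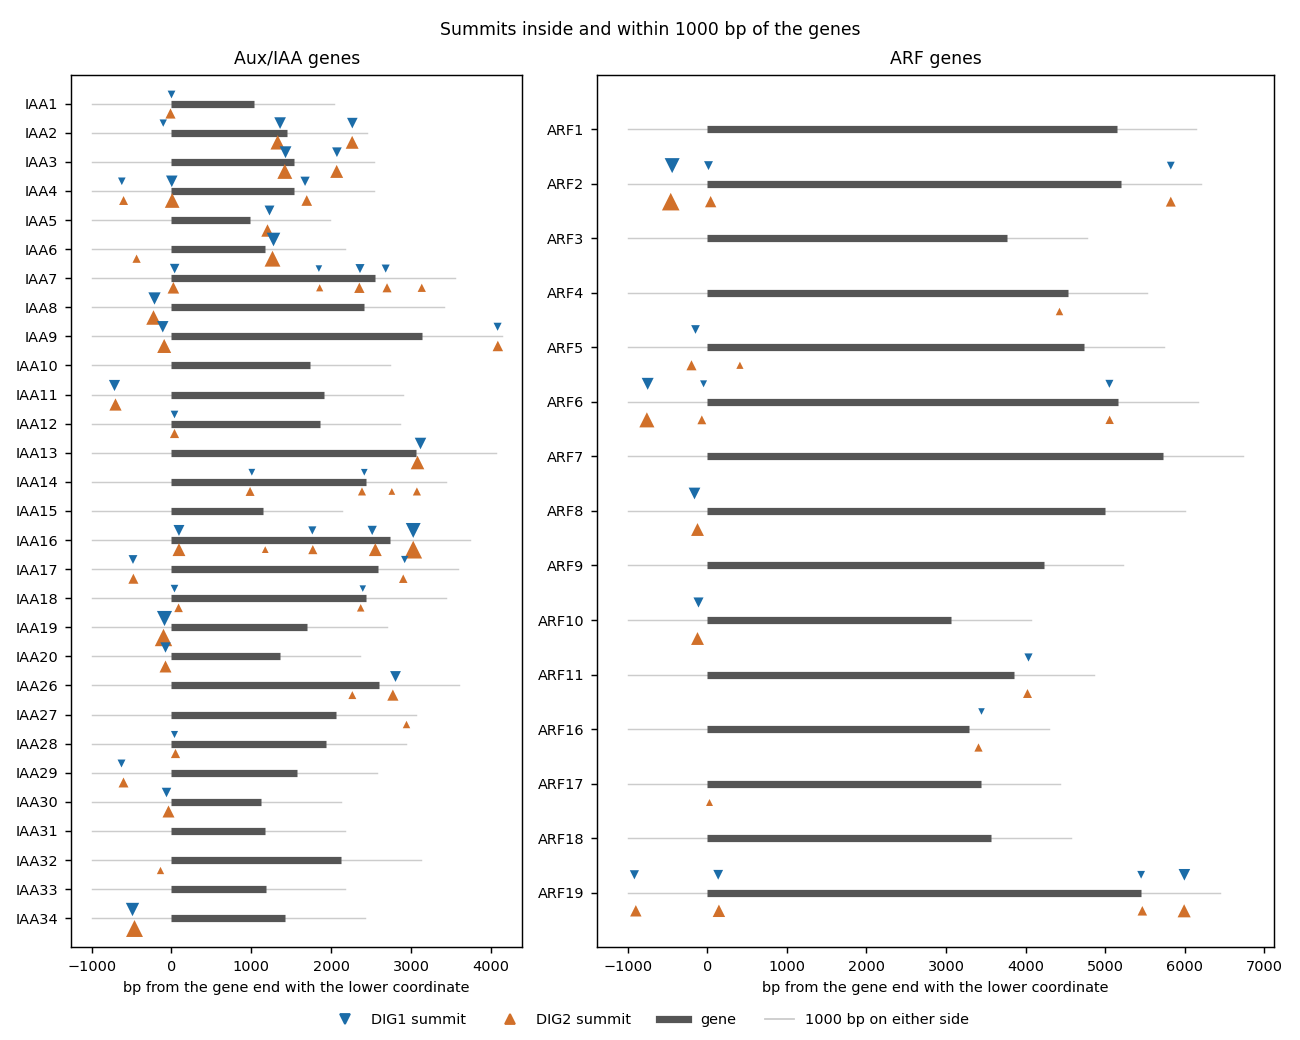
Positions of summits (triangles pointing down for DIG1, up for DIG2, larger with higher −log10 p) along each gene (dark bar) and 1000 bp on either side (thin line), in bp from the gene end with the lower coordinate, for Aux/IAA genes on the left and ARF genes on the right. Summits of the factors stand in pairs at nearly all bound genes and gather around the gene ends, and IAA7, IAA16 and ARF19 carry 4 or more in each list.

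Among the ARF genes, 4 of the 5 activators were bound by both factors (80.0%, Wilson 37.6 to 96.4%). Of the other 10, DIG1 bound 4 (40.0%, 16.8 to 68.7%) and DIG2 6 (60.0%, 31.3 to 83.2%), against 37.7% and 42.3% of all genes. The DIG1 share of these 10 was thus near that of all genes. The 8 ARF genes left out of the members, which had no summit, are not among these 10. The intervals of the activators and of the other 10 overlapped widely. The direction did not hold with the window at 3000 bp or among the 1000 strongest peaks, which reached no activator. Activators were also longer, with a median of 5167 bp against 3814 bp, so their windows were wider. The part of length in this difference was not tested. ARF6 and ARF8, which act together in hypocotyl growth and flower maturation, were both bound. ARF6 had folds of 5.54 for DIG1 and 8.93 for DIG2 at 752 and 762 bp, with 2 further summits in each list at its ends. ARF8 had 1 summit in each list, at 169 and 137 bp, with folds of 5.19 and 6.12. ARF5 (MONOPTEROS, AT1G19850), required for embryonic root and vascular development, was weaker, with folds of 3.22 and 4.21 at 157 and 201 bp.

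ARF7 (AT5G20730) and ARF19 (AT1G19220), closely related activators that act together in lateral root formation, had the fewest and the most summits of the activators. By −log10 p the strongest summit of the activators was at ARF6 in both lists. ARF19 had 4 summits in each list, each within 18 bp of its counterpart, and the strongest, 548 and 545 bp outside the gene, had folds of 5.66 and 7.30. Of these 4, the pair at 919 and 901 bp lay nearer to the gene AT1G19210, at 30 and 12 bp. ARF7 had no summit within 1000 bp. Its nearest DIG2 summit was 1208 bp away with a −log10 p of 42.9, and its nearest DIG1 summit 8130 bp away.

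ARF1, ARF2, ARF3, ARF4, ARF9, ARF11 and ARF18 form the class known mainly as repressors, and DIG1 bound 2 of these 7 (28.6%) and DIG2 3 (42.9%), against 37.7% and 42.3% of all genes. The DIG1 share was below that of all genes and the DIG2 share near it. Both lay below the shares of all genes of 3000 bp or more, 44.1% for DIG1 and 49.5% for DIG2. Apart from ARF2, ARF11 had folds of 2.97 and 3.33 at 180 and 166 bp. ARF4, which acts with ARF3 (ETTIN) in leaf polarity, had 1 DIG2 summit inside the gene with a fold of 2.61. ARF1, ARF3, ARF9 and ARF18 had none in either list, and their nearest summits lay 1230 to 2671 bp away. ARF10, ARF16 and ARF17, the class targeted by the microRNA miR160, were all bound by DIG2 and 2 of 3 by DIG1. ARF10 had folds of 3.89 and 6.51 and ARF16 folds of 2.27 and 3.07, while ARF17 had 1 DIG2 summit 17 bp inside the gene with a fold of 2.37.

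Summits of the factors were paired at the members, in shares near those over the whole lists. Of 53 distinct DIG1 summits at members, 52 (98.1%) had a DIG2 summit within 100 bp, against 94.7% over the whole DIG1 list. Of 63 DIG2 summits, 52 (82.5%) had a DIG1 summit within 100 bp, against 77.0% over the DIG2 list. The median distance within pairs was 15.5 bp at members and 11 bp over each list. The unpaired DIG1 summit, at IAA2, had a −log10 p of 26.9. The 11 unpaired DIG2 summits had a median of 28.6, against 153 for the paired ones, and included those at IAA27, IAA32, ARF4 and ARF17. Both factors were precipitated with the same antibody, no source used here names the control behind each list, and the part of either in this pairing was not tested.

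Strongest summits lay close to gene ends. Of the 31 DIG1-bound members, 20 (64.5%) had their strongest summit at most 200 bp from an end, on either side of it, and of the 35 DIG2-bound members 22 (62.9%) did. Over all bound genes these shares were 45.4% and 44.3%. The median distance to an end was 90 bp for DIG1 and 118 bp for DIG2 at Aux/IAA genes, 174.5 and 151.5 bp at ARF genes, and 240 and 254 bp over all bound genes. The strongest summit was inside the gene at 8 of 23 DIG1-bound Aux/IAA genes and at none of the 8 DIG1-bound ARF genes. For DIG2 it was inside at 8 of 25 Aux/IAA genes and at 2 of 10 ARF genes, ARF4 and ARF17. Over all bound genes it was inside at 23.3% for DIG1 and 23.2% for DIG2.

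Just inside the limit of 1000 bp, IAA9 had a second summit at 950 and 953 bp. IAA27 was counted through a summit at 871 bp. Just outside it, ARF7 had a DIG2 summit at 1208 bp and ARF18 summits at 1230 and 1233 bp. IAA15 had a DIG2 summit at 1342 bp. ARF17 had a DIG1 summit at 1395 bp with a −log10 p of 237, so its place among the genes with a DIG2 summit alone depends on the limit. At 1500 bp DIG1 was counted at 10 and DIG2 at 12 of the 15 ARF genes (66.7% and 80.0%), against 42.5% and 47.3% of all genes. The pairs of neighbouring members IAA3 and IAA17, IAA1 and IAA14, and IAA2 and IAA7 have no protein-coding gene between them, but lay 6388, 10732 and 12510 bp apart and shared no counted summit. Between IAA3 and IAA17 there were 5 summits in each list.

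Other genes of auxin action, given by 6 lists of 52 genes in all, were bound at 30 by DIG1 (57.7%) and 34 by DIG2 (65.4%), again beside 37.7% and 42.3% of all genes. The genes of each list are ordered here by −log10 p. All 6 receptor genes were bound by both factors, led by AFB2, with folds of 4.89 and 8.10, followed by AFB4 for DIG1 and TIR1 for DIG2. By fold, AFB4 (4.98 and 6.91) stood above AFB2 for DIG1 and above TIR1 (5.36) for DIG2. All 5 co-repressor genes were bound by both, led by TPR2, with folds of 7.70 and 12.0, and by TPR3 for DIG1 and TPL for DIG2. Of 12 transport genes DIG1 bound 8 and DIG2 9, led by the influx carrier gene LAX3 (folds 10.7 and 13.0) and the efflux carrier gene PIN7 (folds 6.20 and 9.49). Of 13 synthesis genes DIG1 bound 5 (38.5%, near the share of all genes) and DIG2 8 (61.5%). YUC2 led for DIG1, followed by TAR2, and TAR2 led for DIG2, followed by YUC2. Of 8 GH3 genes, whose products join auxin or jasmonate to amino acids, each factor bound 6, led by GH3.17 (folds 9.57 and 14.5) and GH3.3, with none at GH3.4 and GH3.9. The 8 ARF genes outside the 15 members, ARF12 to ARF15 and ARF20 to ARF23, had no summit of either factor. Counting them would lower the shares given above for ARF genes, for other ARF genes and for the members together.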

How the data were processed

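ChIP-seq libraries were aligned with Bowtie 0.12.7 to TAIR10 and peaks were called with MACS2, per the submitters' processing notes. Whether replicates were pooled, which control was used and the depth are not stated in the sources used here. The deposited lists give, on each line, a summit with the authors' fold enrichment (a ratio over the modelled background), −log10 p, −log10 q and a score. No deposited −log10 p lay under 16, so weaker sites are not seen.

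Gene extents and names came from RefSeq assembly TAIR10.1, whose coordinates are not printed; all 44 members and all 52 other auxin genes matched by locus and name. That table gives no strand, so both gene ends were treated alike. Summits and genes were joined in Python 3.11.15, and the joining was tested on simulated data. A summit near several genes was counted for each. Ranks are among all summits of a list. Wilson intervals are at 95% and cover counting over genes only.

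The members, groups, lists and alternatives were chosen with earlier results of these data known. No enrichment test was made for this reason. Members are named with values if strong, unbound, bound in 1 list only, rich in summits, near the 1000 bp limit, activating or in tandem; the rest were named to account for all. Some genes of the other auxin lists are not reported here by name. The planned search for the degron motif in proteins and for letters in promoters was not run, since no sequence was used here, and degron classes are textbook ones. The alternatives were windows of 500, 2000 and 3000 bp, summits outside or inside genes only, a −log10 p of at least 30, the 1000 strongest peaks, equal list lengths, the strongest summit per interval and the nearest gene only.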

Additional observations from a re-analysis of the deposited data

How the results depend on the processing

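Of the counts of bound genes under the alternatives, 93 stayed within 1.5 times of the value reported and 23 did not. These counts include those over all protein-coding genes and those of the regrouping of IAA31 given below. IAA31 had no summit in either list, so its regrouping could not change a count of bound genes and says nothing on stability. Aux/IAA genes had the larger share than ARF genes in 17 of 20 combinations of alternative and list. The exceptions were the 3000 bp window in both lists and, for DIG2, summits inside genes only (34.5% of Aux/IAA and 40.0% of ARF genes). Activating ARF genes had the larger share than other ARF genes in 16 of 20, the exceptions being the 3000 bp window and the 1000 strongest peaks in both lists. With summits inside genes only, DIG1 and DIG2 were counted at 9 and 10 Aux/IAA, 3 and 6 ARF and 1 and 3 other ARF genes, at 2 activating ARF genes for DIG1, and at 3274 and 3905 of all genes. Among the 1000 strongest peaks, each factor was counted at 4 Aux/IAA, 1 ARF, 1 other ARF and 0 activating ARF genes, and at 1152 (DIG1) and 1092 (DIG2) of all genes. A wider window raised the ARF genes bound by DIG1 to 14 at 3000 bp, and the other ARF genes to 7 at 2000 bp and 10 at 3000 bp for DIG1 and 10 at 3000 bp for DIG2. Over all genes the share rose too, to 46.6% at 2000 bp for DIG1. At 3000 bp it was 54.9% for DIG1 and 59.7% for DIG2. By construction these alternatives use fewer summits or wider windows. Some counts could not leave the limit of 1.5 times. The equal list length left the DIG1 list whole, at 11343 peaks. A wider window could not raise the Aux/IAA or activating ARF counts past the limit, as too few of these genes were unbound. The tally of counts within the limit is thus in part fixed in advance. Counting IAA31, whose degron region is diverged but present, with the degron-bearing genes was added after seeing the data. DIG1 then bound 3 of 5 genes without the degron (60%) and 20 of 24 with it (83.3%). DIG2 bound 4 of 5 (80%) and 21 of 24 (87.5%). The difference narrowed in both lists, through the sizes of the groups only. No paired analysis was possible because there was 1 list per factor. The lower limit of the lists, with no depth known, sets which weak sites could be counted.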
